A study of Mus musculus with 9 samples.

Results

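The genes described here encode RNA polymerase II (symbols that start with Polr2) and the general transcription factors that load it onto promoters (symbols that start with Gtf2, Tbp, and Taf followed by a digit). The rule found 54 protein-coding genes, and 49 of them had at least 1 peak of open chromatin within 1 kb of an annotated end or inside the gene. These genes held 124 of the 75936 peaks in the table, each 501 bases long. Of the 124, 57 had their centre within 1 kb of an end of the gene and are called gene-end peaks, and 67 lay further inside and are called gene-body peaks. Polr2l, Taf7, Taf7l, Taf7l2 and Taf9b had no peak in the table. No member peak fell under the minimum mean value of 10, so all 124 were tested.

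Accessibility came from bulk ATAC-seq, which reads out where a transposase can reach the DNA, in D2A1-d, a mouse breast carcinoma cell line. The study asks about Mediator subunits in metastatic dormancy, and these libraries address what depleting Med1 does to chromatin. The control cells carried a non-targeting hairpin (NTC, genotype labelled WT, 3 libraries). The others carried 1 of 2 hairpins against Med1, shMed1 #2 or shMed1 #4 (both labelled Med1 Knockdown, 3 libraries each). All 9 libraries were labelled untreated, and a hairpin acts on the transcript, so accessibility at Med1 does not measure the depletion. Libraries of one group are labelled as biological replicates, but no label says how the cultures were kept apart, so every p-value refers to the spread among these 9 libraries alone.

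RNA polymerase II cannot find a promoter by itself. TFIID, made of the TATA-binding protein TBP and its associated factors (TAFs), binds the core promoter, and TFIIA and TFIIB then hold the polymerase there together with TFIIF, TFIIE and TFIIH. Mediator, to which MED1 belongs, bridges this machinery and the factors bound at enhancers. Most of these genes are expressed in all cell types from promoters without tissue-specific control.

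With size factors inferred from the steps of the values, which could not be checked against a single read, reads in peaks came to 34.8 to 53.7 M per library and 162 to 252 for the median peak. A value is a normalized count, the reads of a peak divided by the size factor of its library. Vim and Fn1, which are mesenchymal, had strong gene-end peaks (means of 4492 and 3215 normalized counts). Of the epithelial markers, Krt18 had a weak one (168), and Krt8, Epcam and Cdh1 had no gene-end peak in the table. Peaks inside the marker genes were not read. Among leukocyte, endothelial and fat markers, Spi1 and Cdh5 had a gene-end peak (means of 703 and 111), and 8 others, including Ptprc, Pecam1 and Adipoq, had none.

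The member gene-end peaks were strong, with a median over libraries of 1246 normalized counts, against 1037 for gene-end peaks of all genes. The gene-body peaks were weak, with a median of 116 against 167. Where RefSeq gave the strand, 39 of the gene-end peaks lay at the start of the gene and 12 at its other end, and 6 lay at an end whose side was not given. Another 5 peaks lay at an annotated start inside the longest gene model. An end of another protein-coding gene was also within 1 kb for 18 of the 57 gene-end peaks, so these cannot be assigned to a single promoter.

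The sequences before 8 of the start sites are shown to set starts that fell beside starts that did not pass: Polr2a, Polr2c, Gtf2b, Tbp, Taf3 and Taf1c fell with both hairpins, while Polr2j and Taf5 passed the test with neither. Each holds the 150 bases before the annotated start, 5′ to 3′ on the strand of the gene, from RefSeq (GRCm38.p6). Capitals mark matches to any of 7 short motifs, whose letters are given after the sequences, on either strand. The motifs were searched one by one, so matches may overlap. The Taf5 stretch lies outside its start peak, whose centre is 698 bases after the start.
Polr2a (chr11:69758634-69758783, minus strand): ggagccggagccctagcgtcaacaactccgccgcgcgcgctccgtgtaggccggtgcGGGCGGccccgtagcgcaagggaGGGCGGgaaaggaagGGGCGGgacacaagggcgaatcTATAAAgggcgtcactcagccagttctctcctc
Polr2c (chr8:94857300-94857449, plus strand): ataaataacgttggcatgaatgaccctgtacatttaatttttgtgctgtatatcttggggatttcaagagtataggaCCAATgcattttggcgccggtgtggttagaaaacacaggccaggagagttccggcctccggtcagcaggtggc
Tbp (chr17:15499738-15499887, plus strand): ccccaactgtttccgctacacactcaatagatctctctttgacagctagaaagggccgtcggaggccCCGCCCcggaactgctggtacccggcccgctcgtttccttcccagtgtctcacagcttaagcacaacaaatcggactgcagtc
Taf3 (chr2:10048610-10048759, minus strand): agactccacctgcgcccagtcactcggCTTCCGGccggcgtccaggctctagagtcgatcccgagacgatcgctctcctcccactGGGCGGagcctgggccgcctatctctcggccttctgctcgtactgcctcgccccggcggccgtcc
Taf1c (chr8:119605207-119605356, minus strand): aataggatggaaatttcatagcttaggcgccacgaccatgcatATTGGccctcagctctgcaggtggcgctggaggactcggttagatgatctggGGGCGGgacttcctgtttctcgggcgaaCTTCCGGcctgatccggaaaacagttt
Gtf2b (chr3:142765097-142765246, plus strand): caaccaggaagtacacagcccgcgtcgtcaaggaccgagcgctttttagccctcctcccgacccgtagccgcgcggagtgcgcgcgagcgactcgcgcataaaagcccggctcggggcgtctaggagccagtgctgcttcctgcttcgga
Polr2j (chr5:136116541-136116690, plus strand): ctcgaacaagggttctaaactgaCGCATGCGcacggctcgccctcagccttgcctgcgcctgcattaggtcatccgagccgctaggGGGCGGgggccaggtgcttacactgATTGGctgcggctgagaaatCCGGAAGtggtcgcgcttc
Taf5 (chr19:47067598-47067747, plus strand): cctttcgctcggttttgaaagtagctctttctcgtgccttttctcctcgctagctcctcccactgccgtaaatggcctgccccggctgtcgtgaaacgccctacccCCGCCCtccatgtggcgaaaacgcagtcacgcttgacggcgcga

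Polr2a carried a TATA box match (TATAAA) that begins 33 bases before the start, after 3 GC boxes. Polr2j carried 5 matches, including NRF1 cores on both strands that overlap each other, and Gtf2b carried none. Among 42 member genes with a start peak and a RefSeq promoter of 300 bases (250 before to 50 after the start), 29 (69.0%) held the GC box GGGCGG, against 46.7% of 21045 promoters of protein-coding genes. Those 21045 were not limited to promoters with a peak, so the shares do not compare the members with other open promoters. The ETS site CCGGAAG was found in 15 (35.7%, against 11.7% of all promoters). The E-box CACGTG occurred in 10 (23.8% against 7.91%) and the NRF1 core GCATGCG in 5 (11.9% against 4.48%). The CCAAT box was near the general share (35.7% against 38.5%), as was the TATA box (16.7% against 12.7%). The AP-1 site TGACTCA stood in 1 member promoter (2.38% against 4.69%). Median GC content was 59.8% in the members and 56.7% overall. By response, an ETS site stood in 11 of the 28 promoters whose start peak fell with the hairpins averaged (39.3%) and in 4 of the other 14 (28.6%). GC boxes stood in 17 of the 28 (60.7%) and 12 of the 14 (85.7%). These are matches of letters and were not tested against the changes.

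Gene-end peaks of the transcription machinery had a lower fitted mean than in NTC at 49 of 57 with each Med1 hairpin. Of these, 38 passed the test with #2 and 25 with #4. Among all 12225 gene-end peaks, 8287 had a lower fitted mean with #2 and 7234 with #4, and 35.4% and 22.5% passed as lower. Bulk libraries cannot tell fewer open cells from less opening per cell. The 57 peaks summed to 70603, 72357 and 74465 normalized counts in the NTC libraries. With #2 the sums were 66943, 62023 and 61319, and with #4 they were 66951, 65526 and 65303. Every hairpin library was below every NTC library, and the mean sum differed from NTC by −12.5% with #2 and by −9.04% with #4. Over gene-end peaks of all genes the difference was −3.39% and −0.0123%. The member gene-body peaks summed to 2.08% more with #2 and 0.767% more with #4, while all peaks of the table summed to 6.17% and 4.95% more. The median log2 change of the member gene-body peaks was −0.08 with #2 and −0.05 with #4.

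A peak is said to have risen or fallen where limma, fitted over all peaks, gave a Benjamini-Hochberg adjusted p under 0.05. With #2, 38 of the 57 gene-end peaks fell and 2 rose (66.7% and 3.51%), while 35.4% of all 12225 gene-end peaks fell and 12.0% rose. With #4, 25 fell and 3 rose (43.9% and 5.26%), against 22.5% and 14.3%. With the hairpins averaged, 36 fell and 3 rose (63.2% and 5.26%), against 32.7% and 14.4%. The median log2 change of the member gene-end peaks was −0.23 with #2, −0.15 with #4 and −0.21 averaged, beside −0.10, −0.05 and −0.07 over all gene-end peaks. The same 25 peaks fell with each hairpin, and 1 rose with each. The share of all gene-end peaks called with both hairpins was not counted. Both hairpins were compared with the same NTC libraries, so this overlap is not read as a result about the members.

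Without the spread of the fit, 31 of the 57 had all 6 hairpin libraries below all 3 NTC libraries (23.4% of all gene-end peaks did), and 0 had all 6 above (10.7%). Strong peaks gave the same picture: of 42 members with a mean of at least 500, 30 fell and 2 rose with the hairpins averaged, against 37.0% and 17.3% of 8382 such peaks. Among the 18 peaks shared with another gene 12 fell and 3 rose, against 34.3% and 15.4% of all 1791 shared gene-end peaks. Of the 39 unshared, 24 fell and 0 rose. The shares over unshared gene-end peaks of all genes were not counted. Of all 12225 gene-end peaks, shared or not, 32.7% fell and 14.4% rose. The sign of the median did not depend on scaling, but the counts did. Centring each library on the gene-end peaks, an alternative chosen after seeing the data, moved the median of all peaks with #2 from −0.02 to 0.09. It left 22 member gene-end peaks that fell and 4 that rose with #2 (16.2% and 21.7% of all gene-end peaks), and 18 and 3 with #4 (13.4% and 19.7%). With libraries scaled to equal totals, 44 fell and 1 rose with #2 (52.5% and 6.72% of all gene-end peaks), and 38 and 3 with #4 (35.9% and 8.29%).

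**Figure D1:**
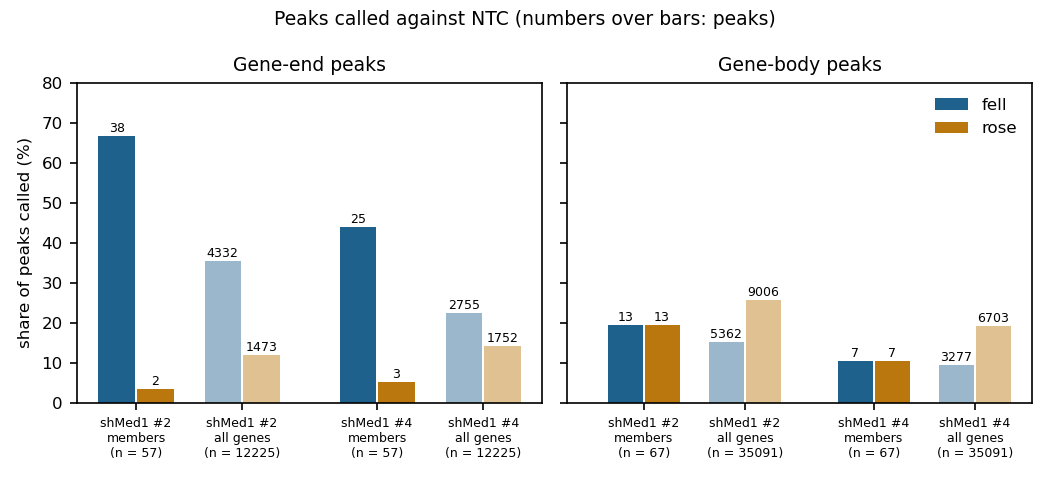
Share of peaks called against NTC (y axis, percent) at gene ends (left) and in gene bodies (right), for member peaks (dark bars) and peaks of all genes (light bars) with each hairpin. Blue bars are peaks that fell and orange bars peaks that rose, with their number on top: 38 and 25 member gene-end peaks fell, and 2 and 3 rose.

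For each gene, the strongest gene-end or inner-start peak was taken, which gave 48 genes (Gtf2a1l had a gene-body peak only). With #2 the peak of 35 fell and that of 1 rose (35.4% and 12.0% of all gene-end peaks). With #4 the peak of 24 fell and that of 2 rose (22.5% and 14.3%), and with the hairpins averaged 33 fell and 2 rose (32.7% and 14.4%). These shares, used again for the complexes below, are over gene-end peaks of any strength and can include several per gene, so the sets differ. Of gene-end peaks with a mean of at least 500, 39.8% fell and 13.5% rose with #2. With #4 it was 26.4% and 17.9%, and averaged 37.0% and 17.3%. The sections that follow go through the complexes in turn.

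RNA polymerase II was represented by 12 genes with such a peak, of which 9 fell and 1 rose with the hairpins averaged, beside the 32.7% and 14.4% of all gene-end peaks. Polr2a encodes the catalytic subunit whose repeat-bearing tail is phosphorylated during transcription. Its start peak (chr11:69758515-69759016) held 2846, 2928 and 3046 normalized counts in NTC, 2407, 2152 and 2311 with #2, and 2619, 2506 and 2405 with #4. No hairpin library reached the lowest NTC library. The log2 change was −0.36 ± 0.05 (SE, limma adjusted p = 1.95e-08) with #2 and −0.23 ± 0.05 (adjusted p = 0.000204) with #4. The fall differed between the hairpins by 0.13 ± 0.05 (adjusted p = 0.0387), although the libraries of #2 and #4 overlapped.

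Polr2c, which pairs with Polr2j to start assembly of the enzyme, had a start peak (chr8:94857245-94857746) of 1419, 1591 and 1660 in NTC. It held 1328, 1208 and 1118 with #2 and 1208, 1139 and 1076 with #4. All 6 hairpin libraries were below NTC, while #2 and #4 overlapped each other, and the change was −0.35 ± 0.06 with #2 (limma adjusted p = 1.11e-05) and −0.45 ± 0.06 with #4 (adjusted p = 2.67e-07). Its partner Polr2j differed: the start peak (chr5:136116398-136116899) held 1368, 1353 and 1416 in NTC, 1242, 1350 and 1275 with #2, and 1313, 1401 and 1421 with #4. The #2 libraries were all below NTC, those of #4 overlapped it, and the changes of −0.10 ± 0.06 and −0.00 ± 0.06 did not pass. The promoter sequences of this pair are among those printed above.

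Several subunits serve RNA polymerases I, II and III alike. Of these, the Polr2e and Polr2k peaks fell with both hairpins, Polr2k by 0.38 on the log2 scale with the hairpins averaged (SE 0.08, limma adjusted p = 6.84e-05). Polr2f did not pass with either. Polr2h had the strongest of the member gene-end peaks (mean 4219, chr16:20717302-20717803), and it went the other way: 4023, 3924 and 4099 in NTC, 4053, 4059 and 4242 with #2, and 4547, 4551 and 4477 with #4. The #4 libraries stood above all others, with a change of 0.17 ± 0.04 (adjusted p = 0.000434), while #2 overlapped NTC (0.04 ± 0.04). An end of Clcn2, a chloride channel gene, lies within 1 kb of the same peak. Polr2m, whose product binds the polymerase and restrains initiation, fell with both, by 0.30 averaged (SE 0.07, adjusted p = 0.000212).

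TFIID was represented by 13 genes, of which 8 fell and 1 rose with the hairpins averaged, beside the same 32.7% and 14.4%. Tbp, the DNA-binding core shared by the initiation factors of all 3 polymerases, had a start peak (chr17:15499573-15500074) of 1576, 1687 and 1724 in NTC. With #2 it held 1405, 1177 and 1098, and with #4 it held 1468, 1421 and 1218. Both hairpins stayed below NTC and overlapped each other, and the changes were −0.45 ± 0.07 (limma adjusted p = 3.66e-07) and −0.28 ± 0.07 (adjusted p = 0.000968). A stronger peak 10943 bases inside the gene (chr17:15510581-15511082) moved the opposite way. It held 2330, 2370 and 2273 in NTC, 2717, 2639 and 2674 with #2, and 2819, 2869 and 2684 with #4. Every hairpin library was above every NTC library there, with changes of 0.20 ± 0.04 (adjusted p = 0.000244) and 0.26 ± 0.04 (adjusted p = 8.8e-06).

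Taf3, a TAF that reads a histone mark of active promoters, fell most among the TFIID starts with the hairpins averaged. Its start peak (chr2:10048416-10048917) held 687, 746 and 808 in NTC, 598, 530 and 510 with #2, and 563, 453 and 499 with #4. NTC stood above both hairpins, which overlapped each other, and the changes were −0.45 ± 0.08 with #2 (limma adjusted p = 1.58e-05) and −0.57 ± 0.08 with #4 (adjusted p = 4.72e-07). Taf4, a scaffold of the complex, fell by 0.35 averaged (SE 0.05, adjusted p = 5.65e-07). Taf9 and Taf13, which carry histone folds, also fell with both hairpins.

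Taf1, the largest TAF, did not pass at either of its peaks. The one at the outer start (chrX:101527335-101527836) held 342, 331 and 323 in NTC, 296, 359 and 264 with #2, and 354, 235 and 319 with #4. The groups overlapped (−0.13 ± 0.11 and −0.15 ± 0.11). The stronger peak at its inner start (chrX:101532514-101533015) held 1910, 1879 and 1886 in NTC, 1909, 1962 and 1925 with #2, and 2052, 1976 and 2026 with #4. There #2 overlapped NTC, and #4 lay above it by 0.09 ± 0.05, which did not pass (limma adjusted p = 0.148). Taf5 is a structural subunit, and its peak (chr19:47068196-47068697) lies downstream of the start and does not cover the stretch printed above. It held 1603, 1530 and 1562 in NTC, 1575, 1541 and 1515 with #2, and 1619, 1444 and 1609 with #4. The 3 groups overlapped, with changes of −0.02 ± 0.05 and −0.01 ± 0.05.

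Taf10, a subunit of both TFIID and the coactivator SAGA, was the gene-end peak that rose with each hairpin (chr7:105744203-105744704). It held 1736, 1511 and 1551 in NTC, 1873, 1788 and 1787 with #2, and 1728, 1923 and 1887 with #4. The #2 libraries stood above NTC, while 1 library of #4 lay just below the highest NTC library. The changes were 0.19 ± 0.06 (limma adjusted p = 0.00554) and 0.21 ± 0.06 (adjusted p = 0.00313). The peak is also within 1 kb of an end of Tpp1, which encodes a lysosomal protease. The 3 gene-end peaks that rose with the hairpins averaged, at Taf10, Polr2h and the far end of Taf1d, were all shared with another gene. The averaged rise at Taf1d was lost without NTC replicate 2 or 3 or #4 replicate 1 (adjusted p = 0.056, 0.101 and 0.112) and with equal totals (0.0648).

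**Figure D2:**
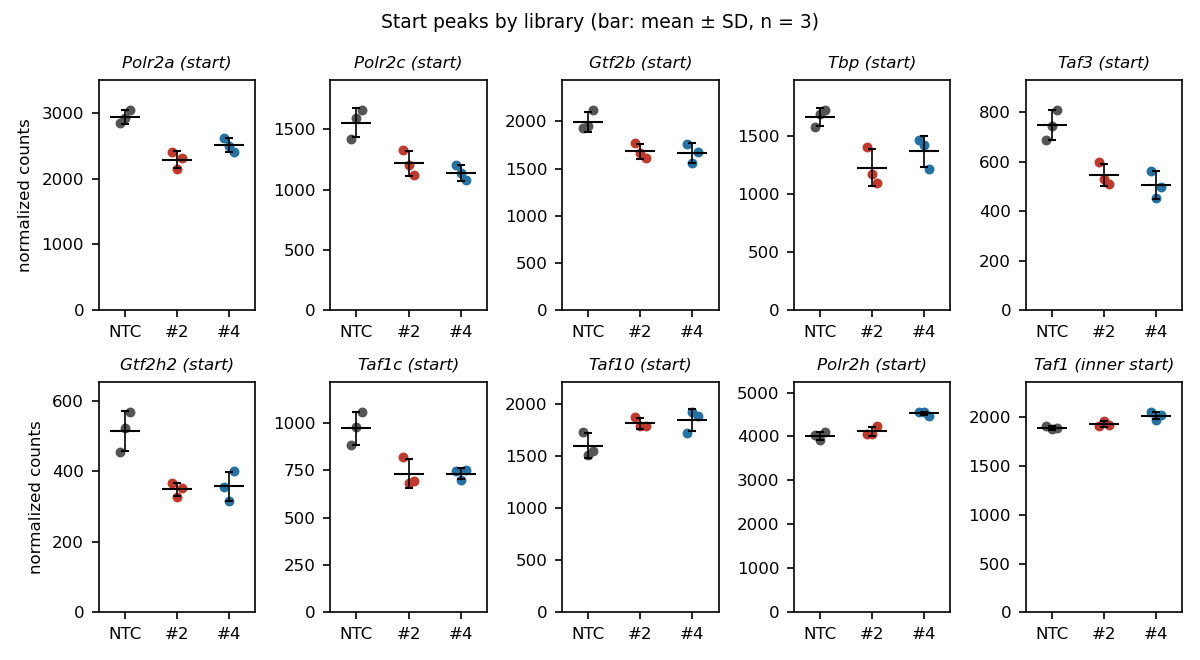
Normalized counts (y axis, from 0) of 10 start or inner-start peaks in each of the 9 libraries, by group (x axis), with the mean and SD of 3 libraries as bars. Polr2a, Polr2c, Gtf2b, Tbp, Taf3, Gtf2h2 and Taf1c are lower in all 6 hairpin libraries, while Taf10, Polr2h and Taf1 are not.

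Among the factors that join after TFIID, Gtf2b encodes TFIIB, the single protein that connects TBP to the polymerase. Its start peak (chr3:142764967-142765468) held 1924, 1947 and 2120 in NTC, 1774, 1661 and 1616 with #2, and 1758, 1555 and 1679 with #4. No hairpin library reached NTC, while #2 and #4 overlapped, and the changes were −0.25 ± 0.05 (limma adjusted p = 0.00026) and −0.26 ± 0.05 (adjusted p = 0.000183). Both TFIIF genes, whose product escorts the polymerase to the promoter, fell with both hairpins, by 0.22 at Gtf2f1 and 0.30 at Gtf2f2 averaged. In TFIIE, which recruits TFIIH, Gtf2e2 fell with both hairpins (0.29 averaged, SE 0.05, adjusted p = 5.18e-06) and Gtf2e1 with neither. In TFIIA, which steadies TBP on DNA, Gtf2a2 fell with both and Gtf2a1 with neither at its start.

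TFIIH opens the promoter DNA and phosphorylates the polymerase tail. The start peaks of its 5 genes with a Gtf2h symbol all fell with #2 and with the hairpins averaged, and those of Gtf2h1, Gtf2h2 and Gtf2h3 also with #4. Of all gene-end peaks 35.4% fell with #2, 32.7% averaged and 22.5% with #4. Gtf2h2, a core subunit that stimulates a TFIIH helicase, had the largest fall of the gene-end peaks averaged over the hairpins. Its peak (chr13:100492078-100492579) held 454, 523 and 567 in NTC, 366, 328 and 351 with #2, and 356, 315 and 400 with #4. Only NTC stood apart from the other groups, with changes of −0.56 ± 0.10 (limma adjusted p = 4.43e-06) and −0.53 ± 0.10 (adjusted p = 2.24e-05). The other 4 genes changed by −0.15 to −0.31 averaged.

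Taf1a, Taf1b, Taf1c and Taf1d form with TBP the factor that directs RNA polymerase I to ribosomal RNA genes, and are members by symbol only. All 4 start peaks fell with each hairpin, beside 35.4% of all gene-end peaks with #2 and 22.5% with #4. The Taf1c peak (chr8:119604941-119605442) held 881, 976 and 1056 in NTC, 820, 685 and 692 with #2, and 745, 698 and 753 with #4. All hairpin libraries were below NTC, with changes of −0.41 ± 0.07 (limma adjusted p = 1.27e-05) and −0.40 ± 0.07 (adjusted p = 2.85e-05). By contrast neither Taf5l nor Taf6l, the SAGA forms of Taf5 and Taf6, passed at the start, and neither did Taf15, an RNA-binding protein of the FET family (0.00 ± 0.04 averaged). The peak at the other end of Taf6l, shared with Tmem179b, fell with #2 (−0.22 ± 0.05, limma adjusted p = 0.000897) and #4 (−0.20 ± 0.05, adjusted p = 0.00329).

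**Figure D3:**
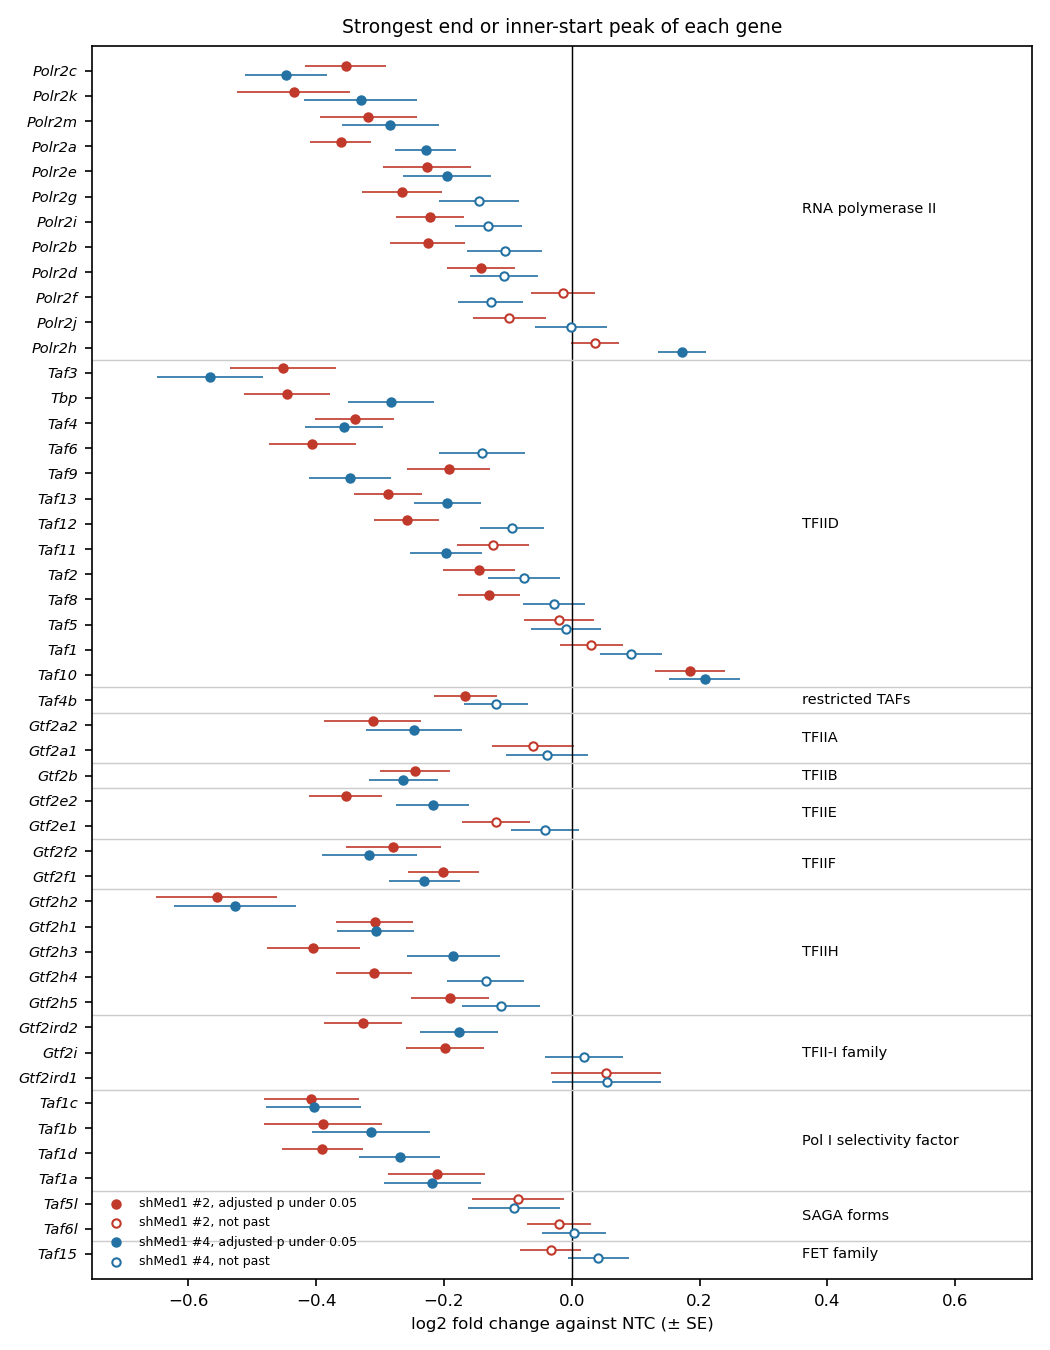
Log2 fold change against NTC (x axis, with SE) of the strongest gene-end or inner-start peak of 48 genes (y axis), grouped by complex, for shMed1 #2 (red) and shMed1 #4 (blue). Filled points passed the adjusted threshold; most lie left of 0, and Taf10 and Polr2h lie right of it.

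Inside the genes the balance was different. Of 67 gene-body peaks, 13 rose and 13 fell with #2 (25.7% and 15.3% of all 35091 gene-body peaks) and 7 rose and 7 fell with #4 (19.1% and 9.34%). Averaged, 10 rose and 9 fell (24.3% and 13.9%), and 15 fell without #2 replicate 1 (18.7% of all peaks tested). Scaling moved the averaged count that fell from 4 (centred on gene ends) to 22 (equal totals). The share of all peaks tested that fell moved likewise, from 8.82% to 27.7%. Shares over all gene-body peaks were not counted in these fits. The averaged median log2 change was −0.08, against 0.02 for all gene-body peaks. Some of the largest changes lay here, mostly in weak peaks. Over all 124 peaks, 15 rose and 51 fell with #2 (23.6% and 19.5% of all 75930 peaks tested), 10 and 32 with #4 (17.3% and 12.1%), and 13 and 45 averaged (22.1% and 17.7%). With libraries centred on gene ends 19 rose and 27 fell with #2 (30.8% and 8.96% of all peaks), 14 and 19 with #4 (21.3% and 6.66%), and 16 and 28 averaged (29.1% and 8.82%). With equal totals 12 rose and 65 fell with #2 (17.8% and 29.1%), 7 and 55 with #4 (12.3% and 19.7%), and 8 and 65 averaged (15.9% and 27.7%).

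Gtf2i encodes TFII-I, a signal-responsive factor that binds initiator elements. Towards its far end, 2 peaks rose with both hairpins, while its start fell with #2 (−0.20 ± 0.06, limma adjusted p = 0.00715). The one at chr5:134248925-134249426 held 890, 827 and 754 in NTC, 1310, 1301 and 1376 with #2, and 1105, 956 and 856 with #4. Only #2 stood clear of NTC; the changes were 0.69 ± 0.07 (limma adjusted p = 2.38e-11) and 0.23 ± 0.07 (adjusted p = 0.00953). Its neighbour at chr5:134246138-134246639 held 697, 608 and 670 in NTC, 928, 914 and 964 with #2, and 855, 847 and 813 with #4. Every hairpin library was higher there (0.51 ± 0.07 and 0.35 ± 0.07, adjusted p = 3.41e-08 and 8.31e-05). A weak peak at the far end (chr5:134238149-134238650) rose from 52.9 ± 1.46 in NTC to 86.4 ± 6.46 (SD, n = 3) with #4 only (limma adjusted p = 0.0082).

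The related Gtf2ird1, a second TFII-I family gene beside it on the chromosome, showed changes both ways. Its peak at chr5:134437416-134437917 held 553, 521 and 496 in NTC, 624, 645 and 722 with #2, and 736, 738 and 739 with #4. All hairpin libraries were above NTC (0.34 ± 0.08 and 0.50 ± 0.08, limma adjusted p = 0.000247 and 9.47e-07). A peak at chr5:134373815-134374316 fell with #2 (−0.55 ± 0.16, adjusted p = 0.00438) and, at −0.36 ± 0.16, did not pass with #4. The start peak was at 442 ± 38.4, 458 ± 19.2 and 459 ± 22.8 (SD, n = 3) in NTC, #2 and #4 and did not pass.

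Like Tbp, Taf1d had a start that fell and inner peaks that rose. Inner peaks of Taf3 (0.14 ± 0.06, chr2:9955902-9956403) and Polr2a (0.26 ± 0.10, chr11:69752605-69753106) also rose with the hairpins averaged (limma adjusted p = 0.0415 and 0.0316). With #4 alone the Polr2a peak did not pass (adjusted p = 0.0951). Other genes went the other way inside, such as Polr2f (−0.23 ± 0.07 averaged, adjusted p = 0.00953). Of all 67 member gene-body peaks 10 rose and 9 fell averaged, against 24.3% and 13.9% of all gene-body peaks. At Taf1d the start peak (chr9:15305985-15306486) fell by 0.33 averaged (SE 0.06, limma adjusted p = 3.06e-06). The peak at chr9:15315436-15315937 held 188, 175 and 154 in NTC, 232, 250 and 266 with #2, and 246, 201 and 200 with #4. Every hairpin library was above NTC, with 0.53 ± 0.12 (adjusted p = 0.000281) and 0.32 ± 0.12 (adjusted p = 0.0361). The call with #4 was lost without NTC replicate 2 or 3 or without #4 replicate 1 (adjusted p = 0.0716, 0.191 and 0.211), and with equal totals (0.101). Peaks on either side, at chr9:15313611-15314112 and at the far end shared with Cep295 (chr9:15316199-15316700), rose with #2 by 0.54 ± 0.12 and 0.59 ± 0.15 (adjusted p = 0.000183 and 0.00137).

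Taf12, the histone-fold partner of Taf4, had the largest rise with #4 and averaged, though with #2 it was below Gtf2ird1 (0.74) and Gtf2i (0.69). Its peak at chr4:132281609-132282110 held 55.5, 54.4 and 61.6 in NTC, 69.4, 97.9 and 110 with #2, and 132, 109 and 86.8 with #4. Both hairpins were above NTC (0.66 ± 0.19 and 0.90 ± 0.19, limma adjusted p = 0.00453 and 0.00025). Without #2 replicate 3 the adjusted p with #2 was 0.053. The next peak of the gene, chr4:132285854-132286355, rose with #4 only just (0.47 ± 0.18, adjusted p = 0.0479), and lost that call in 5 of the 6 fits that left out an NTC or #4 library (adjusted p up to 0.17) and with equal totals (0.0909).

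The deepest falls inside genes came from weak peaks. In Gtf2f2 the peak at chr14:76000606-76001107 held 79.7, 115 and 83.8 in NTC, 47.4, 53 and 36.9 with #2, and 56.3, 73.8 and 66.8 with #4. All hairpin libraries were lower, and the change was −1.0 ± 0.21 with #2 (limma adjusted p = 0.000151) but did not pass with #4 (−0.48 ± 0.21). In Taf4b, a form of Taf4 found mainly in gonads and lymphoid cells, a peak went from 132 ± 6.92 in NTC to 84.7 ± 8.45 with #2 and 98.7 ± 0.723 with #4 (SD, n = 3; adjusted p = 0.000933 and 0.0402). The #4 call there was lost whenever an NTC or #4 library was left out (adjusted p up to 0.126), and when libraries were centred on gene ends or quantile scaled (0.0984 and 0.0686).

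Some falls near the threshold, in Taf15 and Gtf2a2, were lost in several fits, and all were lost with libraries centred on gene ends or quantile scaled. In Taf15 the peak at chr11:83491402-83491903 went from 67.0 ± 12.7 in NTC to 43.7 ± 8.62 with #2 (SD, n = 3; limma adjusted p = 0.0434). It missed the threshold without NTC replicate 2 or 3 or #2 replicate 2 or 3 (adjusted p up to 0.217). Another Taf15 peak, chr11:83479030-83479531, went from 115 ± 3.03 to 83.7 ± 6.54 with #4 (adjusted p = 0.0311), and missed it in 5 of the 6 fits without an NTC or #4 library (up to 0.0921). The Gtf2a2 peak at chr9:70018755-70019256 went from 76.9 ± 15 to 50.0 ± 7.66 with #2 (adjusted p = 0.021), and missed it without NTC replicate 1 or 3 or #2 replicate 2 or 3 (up to 0.143).

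**Figure D4:**
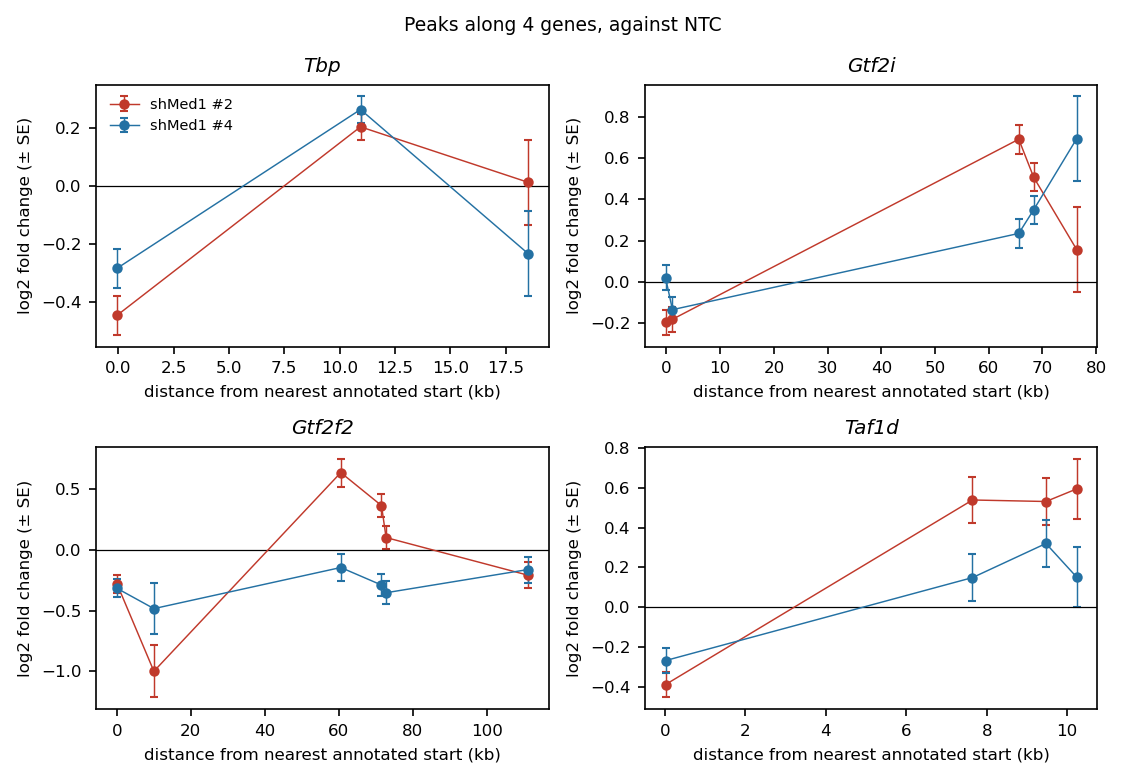
Log2 fold change against NTC (y axis, with SE) of each peak of Tbp, Gtf2i, Gtf2f2 and Taf1d by its distance from the nearest annotated start (x axis, kb), for shMed1 #2 (red) and shMed1 #4 (blue), with lines joining neighbouring peaks. In Tbp the start is below 0 and the peak 10943 bases inside is above it with both hairpins, while in Gtf2f2 the hairpins separate in the inner peaks.

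The hairpins were compared directly as #4 against #2. Over the 124 peaks 11 were higher and 9 lower with #4 (8.48% and 13.0% of all peaks), and over the 57 gene-end peaks 7 were higher and 1 lower (11.5% and 3.70% of all gene-end peaks), close to the general shares. Inside genes 4 were higher and 8 lower (7.94% and 13.5% of all gene-body peaks). Scaling turned the balance over the 124 peaks, with 5 higher and 12 lower when centred on gene ends (4.82% and 15.2% of all peaks) and 17 and 9 with equal totals (10.2% and 12.1%). Among peaks at gene starts the largest difference was at Taf6, the histone-fold partner of Taf9. Its start peak (chr5:138187668-138188169) held 885, 857 and 932 in NTC, 663, 674 and 679 with #2, and 816, 796 and 812 with #4. The 3 groups did not overlap, and #4 exceeded #2 by 0.27 ± 0.07 (limma adjusted p = 0.00264).

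Gtf2f2 held the member peak that was called in opposite directions. At chr14:75939064-75939565 it had 438, 459 and 402 in NTC, 553, 556 and 562 with #2, and 338, 312 and 420 with #4. The #2 libraries were above NTC, and those of #4 were below #2 but overlapped NTC. The change was 0.37 ± 0.09 with #2 (limma adjusted p = 0.00108) and −0.29 ± 0.09 with #4 (adjusted p = 0.0136), a difference of −0.66 ± 0.09 (adjusted p = 2.5e-07). The fall with #4 was lost without NTC replicate 2 or #4 replicate 1 or 2 (adjusted p = 0.0902, 0.054 and 0.146), and with centring on gene ends (0.0704). A peak at chr14:75950068-75950569 also rose with #2 only, from 190 ± 4.79 in NTC to 297 ± 33.6, and stood at 171 ± 3.1 with #4 (SD, n = 3). The start of the gene fell with both hairpins to like values, 678 ± 68.5 and 659 ± 41.1 from 820.5 ± 9.82.

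Genes that work beside the members were read from lists chosen by function. Of 30 gene-end peaks of pausing and elongation factors, 17 fell and 4 rose with the hairpins averaged, beside 32.7% and 14.4% of all gene-end peaks. Mepce, which holds the elongation kinase in an inactive complex, fell from 1851 ± 153 to 1229 ± 83.6 with #2 and 1427 ± 26.2 with #4 (SD, n = 3; averaged log2 −0.48, limma adjusted p = 7.92e-11). Aff1, a scaffold of the super elongation complex, had a gene-body peak that rose from 443 ± 36.9 to 925 ± 28.2 and 632 ± 23 (0.79, adjusted p = 5.12e-14). Of 18 gene-end peaks of RNA polymerase I and III subunits, 8 fell and 5 rose, with Polr1a at −0.43 (adjusted p = 7.54e-07) and Polr3b at 0.41 (adjusted p = 2.99e-11).

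The smaller lists are also read beside the 32.7% of all gene-end peaks that fell and the 14.4% that rose with the hairpins averaged. For the helicases and kinase of TFIIH, 1 of 4 gene-end peaks fell and 0 rose averaged, and 2 fell with #4. The averaged fall was that of Ercc2, a helicase of promoter opening and DNA repair (−0.45 ± 0.07, limma adjusted p = 3.96e-07), while a gene-body peak of the kinase assembly factor Mnat1 rose (0.19 ± 0.05, adjusted p = 0.00246). Of 4 gene-end peaks of TBP relatives and regulators, 1 fell and 0 rose averaged, at Dr1, a TBP-binding repressor (−0.27 ± 0.06), and 1 rose with #4. Among 12 gene-end peaks of assembly, phosphatase and termination genes, 5 fell and 1 rose averaged. The tail phosphatase gene Ssu72 changed by −0.32 ± 0.06 (adjusted p = 1.83e-05) and the termination factor gene Pcf11 by 0.10 ± 0.04 (adjusted p = 0.0193).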

How the data were processed

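The 9 ATAC-seq libraries fall into 3 groups of 3. The submitters' processing notes name Trim Galore, BWA, MACS2 and featureCounts of Subread, and the mouse build mm10 (GRCm38), without saying how each was used. Not given in the sources used here are versions, duplicate removal, treatment of multi-mapped reads and any transposase offset. The deposited signal per peak is the authors' DESeq2-normalized count, per the name of the deposited table, that is, reads divided by a size factor per library (0.799 to 1.22, worked out from the steps of the values). Since even the smallest value above 0 in a library corresponds to at least 2 reads, the worth of a single read could not be checked, and no count model was run.

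Log2 of the value plus 1 was fitted in limma 3.58.1 (R 4.3.3) with trend and a mean per group, for the 75930 peaks with a mean of at least 10 (6 were removed). Tests were two-sided, and p-values were adjusted by Benjamini-Hochberg across all tested peaks, contrast by contrast, and called under 0.05. Fold changes are on the log2(value + 1) scale, and errors are limma's SE or the SD of 3 libraries. The fit was also run on data simulated peak by peak, independently, with few changed peaks. Such data do not address the scaling of these libraries. Gene ends came from RefSeq (GRCm38.p6), which gave the strand for 47 of the 54 genes. Positions are given as in the deposited table, which does not say if counting starts at 0 or at 1.

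The members, gene lists and naming rule were chosen with earlier results of these data known. The rule named the strongest gene-end peak of Polr2a, Gtf2b, Tbp and Taf1. It also named, per contrast, the first 6 higher and 6 lower called member peaks with a mean of at least 50, peaks called in opposite directions, and 1 higher and 1 lower peak per partner list. Other members named in the text were picked after their values were seen. Alternatives covered pseudocounts, filters, scalings, library weights, a fold minimum, shared peaks, the membership rule, a replicate block and leaving out each library. The result for 1 marker gene is not reported here.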

Additional observations from a re-analysis of the deposited data

Results flagged for a closer look

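Chromatin at 20 member peaks (16.1%) differed between the 2 hairpins, by limma's test of #4 against #2 fitted over all peaks (adjusted p under 0.05). The share over all 75930 peaks tested was 21.5%, so such differences were not more frequent among the members. Of the 20, 14 were picked by the rule for named peaks. The other 6 were inner peaks of Taf4 (0.83) and Taf3 (−0.81 and −0.19) and the starts of Polr2h (0.14), Taf12 (0.16) and Gtf2h4 (0.17), as log2 differences. The values that follow are for the 14, likewise #4 minus #2, and a negative value means that #2 was higher. The gene-body peaks with negative values lay in Gtf2ird1 (−0.95), Gtf2f2 (−0.78, −0.66 and −0.46), Gtf2i (−0.46) and Taf1d (−0.39). The far-end peak of Taf1d gave −0.44, and missed the threshold without #2 replicate 1 or 3 or #4 replicate 2 or 3 (adjusted p = 0.106, 0.0584, 0.131 and 0.30).

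In the Gtf2ird1 peak (chr5:134408196-134408697) the #2 libraries held 234, 286 and 202 normalized counts, against 175, 121 and 135 in NTC and 153, 103 and 119 with #4. Only #2 stood apart from NTC there. Positive values at gene starts were smaller: Polr2a 0.13, Gtf2i 0.22, Gtf2h3 0.22 and Taf6 0.27. The Gtf2i value missed the threshold without #2 replicate 2 (adjusted p = 0.0826), and that of Gtf2h3 without #2 replicate 2 or 3 or #4 replicate 2 or 3 (up to 0.158) and with centring on gene ends (0.0856). The other positive values of the 14 came from weak peaks, Taf15 0.47, Taf12 0.47 at its far end and Taf12 0.74 inside the gene. Of these, Taf15 missed it without #2 replicate 1 or 2 or #4 replicate 2 or 3 (up to 0.102) and with centring (0.075), and the far end of Taf12 without #2 replicate 1 or 2 or #4 replicate 1 (up to 0.146).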

How the results depend on the processing

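Of the 54 results for single named peaks, none changed sign in any of 1026 checks, and 951 checks kept the call while 75 lost it. Counts below are of all member peaks unless gene-end peaks are named, and medians are of all 124. Centring on gene-end peaks, chosen after seeing the data, left 27 (#2), 19 (#4) and 28 (averaged) that fell and 5 that were higher in #4 than #2. It gave medians of −0.0739, −0.0597, −0.0626 and 0.0007 (#4 against #2), and 22 gene-end peaks fell and 4 rose with #2. Equal totals gave 55 that fell with #4, 8 that rose averaged and 17 higher in #4 than #2. Its medians were −0.27, −0.19, −0.22 and 0.0635. At gene ends it gave 1 that rose with #2, 38 that fell with #4 and 1 that rose averaged. Quantile scaling gave 17 higher in #4 than #2 (10.4% of all peaks) and medians of −0.15 (#4) and 0.0735 (#4 against #2). The #4 median was −0.11 with a pseudocount of 10 and −0.11 without shared peaks, where 0, 1 and 0 gene-end peaks rose (#2, #4, averaged). Shares over unshared gene-end peaks of all genes were not counted. Requiring a log2 change of at least 0.32 left 23, 10 and 15 that fell, 5 (#4) and 7 (averaged) that rose, and 4 higher in #4 than #2. At gene ends it left 15, 7 and 10 that fell and 1, 1 and 1 that rose. The shares over all peaks were not counted at this minimum.

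Leaving out 1 library gave 37 to 51, 22 to 35 and 36 to 53 that fell (#2, #4, averaged), and 12 to 15, 7 to 11 and 8 to 13 that rose. The lowest of the last range came without NTC replicate 2. In those fits 13.6% to 19.9%, 7.24% to 13.2% and 11.0% to 18.7% of all peaks fell. Shares that rose were 20.3% to 23.9%, 13.5% to 18.3% and 18.0% to 22.6%. At gene ends 29 to 38, 20 to 28 and 29 to 38 fell, and 1 to 2, 2 to 3 and 1 to 4 rose, with 1 without NTC replicate 2 for #2 and averaged. Of all gene-end peaks 27.1% to 38.7%, 14.9% to 24.7% and 23.1% to 36.1% fell, and 9.55% to 12.1%, 10.8% to 15.5% and 11.1% to 14.6% rose. For #4 against #2, 6 to 16 were higher and 5 to 11 lower (5.84% to 8.37% and 10.9% to 13.0% of all peaks). The 6 came without #2 replicate 2, and 7 and 5 without #4 replicate 2. Medians ran from −0.19 to −0.15, −0.13 to −0.10, −0.15 to −0.12 and 0.0361 to 0.0663 (#4 against #2). Deviations from the group means were not more alike between libraries of the same replicate number. Their correlation was −0.0843 to 0.0335 over 9 same-number pairs and −0.0364 to 0.0764 over 18 others. These values cannot show whether libraries of the same number were prepared together, which the labels do not say. With a replicate block 49, 31 and 45 member peaks fell (18.8%, 11.3% and 17.2% of all peaks), and no named call changed.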
